A study of Glycine max with 4 samples.

Results

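A run of neighbouring genes on soybean chromosome 13 was examined, whose 48 members were taken from the 69145 genes of the deposited tables. The members are all genes with identifiers from Glyma13g11810 to Glyma13g13300, in number order, that reached 1 RPKM in at least 1 shoot tip library and in at least 1 bud library. RPKM is a read count divided by the length of the gene model and by the read total of the library. The identifier range holds 74 genes, so 48 passed this filter and 26 did not. The run was chosen by the RPKM of the five-foliate bud, of which it held a large share, so its share and its levels in that library are descriptions and carry no test.

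The libraries came from 2 isolines of the soybean cultivar Clark, that is, related lines with largely the same genome that differ in a trait. Clark standard is the wild type, with trifoliate leaves, and Clark five-foliate is a mutant line named for its additional leaflets. Both were grown in a greenhouse under optimal conditions with no other treatment, and shoot tips and vegetative buds were taken from plants 4 weeks old. Several plants were harvested for each tissue, but there is 1 library for each genotype in each tissue, so no difference below has a replicate check and no p-value is given.

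Soybean identifiers of this form carry the chromosome number and a number that runs along the chromosome, so genes with close numbers are neighbours. Genes that lie in tandem arrays, with similar sequence repeated side by side, can share sequencing reads, because a short read may match several copies equally well. The best known arrays of this kind in plants are those of ribosomal RNA genes, which form the nucleolus organizers and encode the RNA of the ribosome. A reference gene table of another soybean assembly, RefSeq's Glycine_max_v4.0, lists 448 ribosomal RNA genes in the nuclear genome, and 406 of them are on chromosome 13. These stand between place 2 and place 536 in the order of the 4132 genes of that chromosome. None of the files' identifiers could be matched to that table (0 of 48 members), so the members carry no gene names, and whether any of them overlaps a ribosomal RNA gene was not tested. The molecule sequenced is labelled total RNA, and no method of messenger RNA selection is stated in the labels.

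The totals behind the values were 152791817 alignments for the shoot tip of the standard line, 139769051 for that of the five-foliate line, and 97532923 and 103618555 for their buds. They were recovered from the values together with whole reads and model lengths. Intervals below are exact binomial at 95%, computed from recovered reads. They cover counting error only and compare libraries, not genotypes or tissues. Because names are missing, the tissue labels could not be checked against marker genes.

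The 48 members held 2.54% of the RPKM sum of all genes in the standard shoot tip and 9.50% in that of the five-foliate line, and 10.6% and 16.9% in the standard and the five-foliate bud. The standard shoot tip was thus the library with the smallest share, and the other shoot tip library was close to the standard bud. Summed over members, the five-foliate level was 4.02 times the standard level in the shoot tip and 1.65 times in the bud. In tissue samples such as these, fewer cells of a type and less RNA per cell cannot be told apart. The members' reads, which are not scaled by length, were counted for the 1 model of highest mean RPKM of each gene. They made up 1.08% of all alignments in the standard tip (interval 1.07% to 1.08%) and 4.19% in the five-foliate tip (4.19% to 4.20%). In the buds they made up 4.50% in the standard line (4.50% to 4.51%) and 7.64% in the five-foliate line (7.64% to 7.65%). Reads of the members' other models are in the total of all alignments but not in this count. By the same count all genes passing the filter held 63.1% to 69.0% of alignments, so the shares of reads and of RPKM have different bases. The share of reads was smaller than the share of RPKM in each library, and the order of the 4 libraries was the same.

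**Figure D1:**
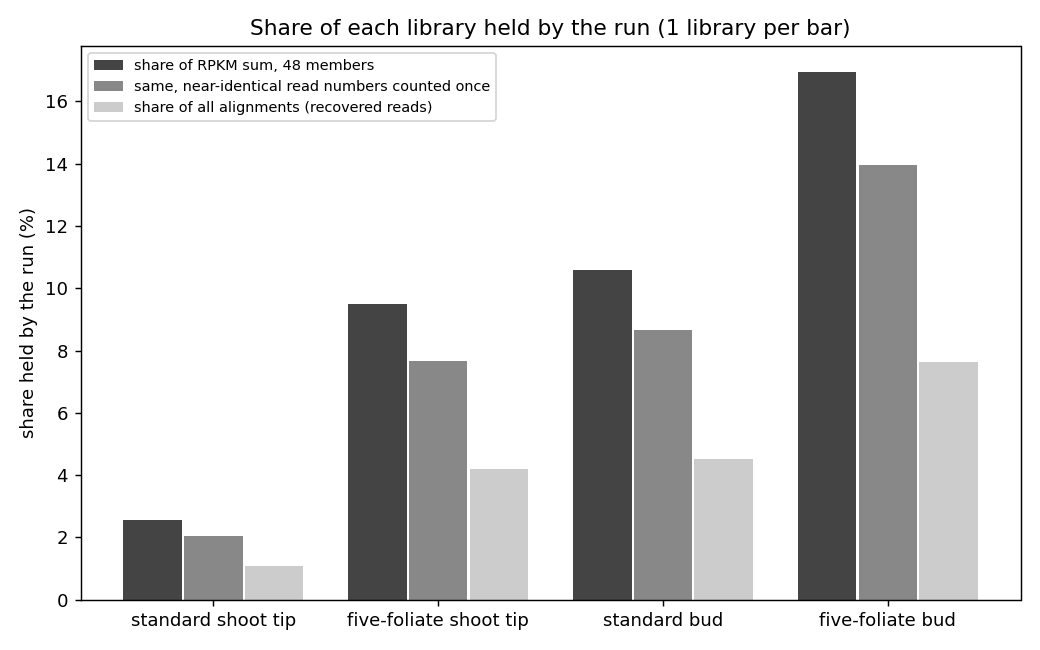
Share of each library held by the 48 members (vertical axis, percent), with 3 bars for each of the 4 libraries. The bars are the share of the RPKM sum, the same with members of near-identical read numbers counted once, and the share of all alignments. The last counts the reads of 1 model per gene. Each bar is 1 library, and all 3 measures are lowest in the standard shoot tip (2.54%, 2.04% and 1.08%) and highest in the five-foliate bud (16.9%, 14.0% and 7.64%).

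The abundance did not extend over the whole identifier range. The first 40 members, Glyma13g11810 to Glyma13g12220, held 2.54%, 9.48%, 10.6% and 16.9% of the RPKM sum of the standard shoot tip, five-foliate shoot tip, standard bud and five-foliate bud. The last 8 members, Glyma13g12560 to Glyma13g13280, together held between 0.00910% and 0.0133%. This division was drawn after the values were seen, and 14 genes of the range that are not members stand between the 2 blocks. Levels of the last 8 ran from 0.802 to 35.1 RPKM over all libraries, close to those of the genes around the run. The 50 genes that pass the same filter before the run had medians from 3.70 to 4.98 RPKM in the 4 libraries, and the 50 after it had medians from 3.40 to 4.60 RPKM. None of these 100 neighbours reached 100 RPKM in any library, the highest value being 99.9 RPKM. Among the first 40 members, the number at 100 RPKM or more was 29 in the standard tip and 33 in the five-foliate tip. It was 34 in the bud of the standard line and 35 in that of the five-foliate line. Of all 34421 genes passing the filter, 629, 745, 692 and 645 reached 100 RPKM in the same order of libraries.

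**Figure D2:**
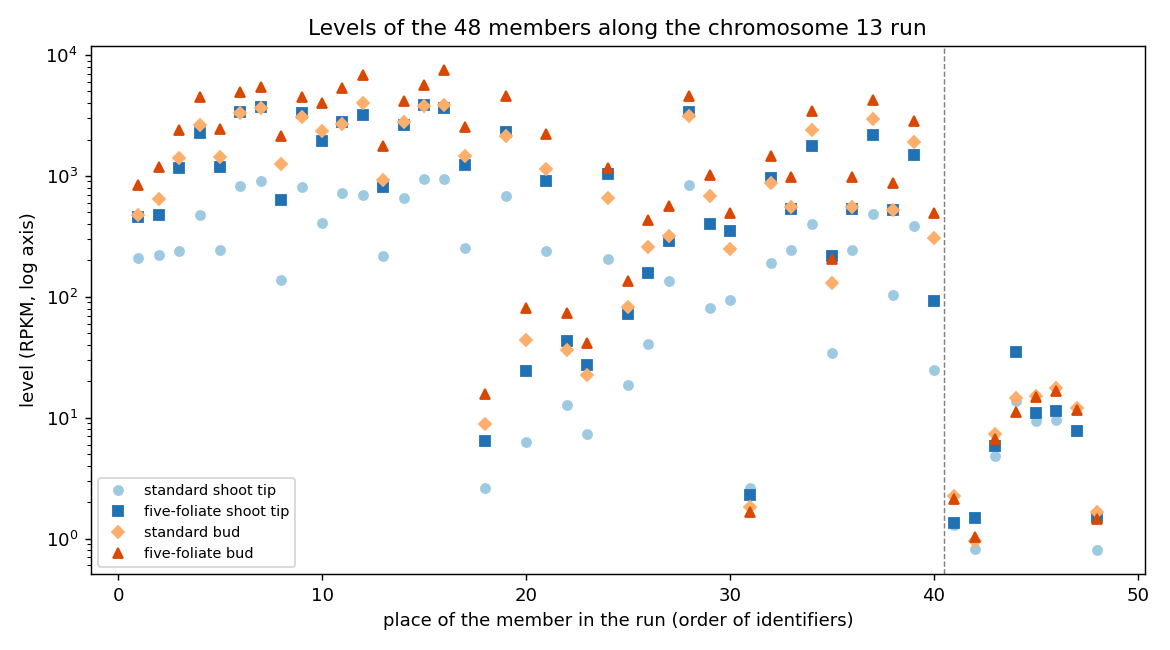
Level of each of the 48 members (vertical axis, RPKM on a log scale) against its place in the run by identifier (horizontal axis), with 1 symbol for each of the 4 libraries. The dashed line separates the first 40 members, up to 7526 RPKM, from the last 8, at most 35.1 RPKM, and in the first 40 the standard shoot tip is the lowest symbol for all but 1 member.

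The border of the run before its first member was sharp, but the identifier range was chosen with earlier results of these data known. Glyma13g11800, the nearest gene passing the filter before the run, had 0.826 RPKM (standard tip), 2.92 RPKM (five-foliate tip), 1.23 RPKM (standard bud) and 1.03 RPKM (five-foliate bud). Glyma13g11810, the first member, had 210 RPKM, 455 RPKM, 474 RPKM and 843 RPKM in the same libraries. After the run, Glyma13g13550 had 2.30, 3.88, 4.41 and 4.31 RPKM, and the last member, Glyma13g13280, had 0.802, 1.51, 1.66 and 1.47 RPKM. The change at the far end of the range was therefore small.

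The 10 members with the largest mean share held 54.8% to 59.4% of the run's own RPKM sum, depending on the library, and all belong to the first 40. Glyma13g11960 was the most abundant gene of the whole five-foliate bud table, with 7526 RPKM there, 3883 RPKM in the standard bud, 3680 RPKM in the five-foliate tip and 938 RPKM in the standard tip. Glyma13g11920 was the most abundant gene of the standard bud, with 4038 RPKM, and had 6825 RPKM in the five-foliate bud, 3167 RPKM in the five-foliate tip and 695 RPKM in the standard tip. Both were lowest in the standard shoot tip and highest in the five-foliate bud, with the five-foliate shoot tip and the standard bud between.

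Glyma13g11950 had 946 RPKM in the standard shoot tip, where it was the most abundant member, 3833 RPKM in the five-foliate tip, and 3779 and 5627 RPKM in the standard and the five-foliate bud. Glyma13g11870 had 915, 3708, 3657 and 5445 RPKM, and Glyma13g11860 had 828, 3355, 3308 and 4925 RPKM, in the same order of libraries. These 3 followed one pattern, described below with their read numbers. The remaining 5 of these 10 are Glyma13g11890, Glyma13g11910, Glyma13g11940, Glyma13g12080 and Glyma13g12190, whose levels lay from 483 to 843 RPKM in the standard shoot tip and from 4147 to 5336 RPKM in the five-foliate bud. Members made up 0 of the 20 most abundant genes of the standard tip, 14 of 20 in the five-foliate tip, 17 of 20 in the bud of the standard line and 19 of 20 in that of the five-foliate line, the last being the library that the choice of the run rests on.

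Within the first 40 members Glyma13g12130 was the member not lowest in the standard shoot tip. It had 2.65 RPKM (standard tip), 2.30 RPKM (five-foliate tip), 1.81 RPKM (standard bud) and 1.67 RPKM (five-foliate bud). It was highest in the library where its neighbours were lowest. Glyma13g12120 beside it had 94.0, 352, 247 and 491 RPKM, and Glyma13g12140 on its other side had 189, 957, 868 and 1451 RPKM. Glyma13g12100 and Glyma13g12110, which lie inside the same stretch, did not pass the filter and had at most 0.121 RPKM and 0.0653 RPKM. Glyma13g11980, elsewhere in the first 40, was also low, with 2.62, 6.45, 8.83 and 15.7 RPKM in the same order of libraries, but was lowest in the standard shoot tip and highest in the five-foliate bud. The abundant stretch is thus interrupted by genes of low RPKM. For Glyma13g11980 this goes with a model of 58139 bases, since RPKM divides by length. Its 23238, 52376, 50047 and 94581 reads were more than the 18382, 36473, 26491 and 50057 of Glyma13g11810.

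Genotypes were first compared in the shoot tip. The choice of the run used these libraries only through the filter and through the model picked for each gene by mean RPKM. The 3 members with the highest ratios on the log2(RPKM + 1) scale were Glyma13g12170, Glyma13g12140 and Glyma13g12040. For Glyma13g12170 the level was 34.6 RPKM in the standard tip against 217 RPKM in the five-foliate tip, 6.26 times as high (interval 6.03 to 6.50). Glyma13g12140 was 5.05 times as high (4.96 to 5.15) and Glyma13g12040 5.02 times as high (4.93 to 5.12) in the five-foliate library. At the other end, Glyma13g12130 was at 0.869 of the standard level (0.816 to 0.925), Glyma13g13270 at 0.998 (0.876 to 1.14) and Glyma13g12560 at 1.04 (0.790 to 1.36). The intervals of the last 2 include equal levels.

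Of the 48 members, 40 had a 2-fold or larger excess in the five-foliate shoot tip on the log2(RPKM + 1) scale, which understates ratios of low genes, and 0 were at least 2-fold lower. Over all 34421 genes that passed the same filter, 7.9% were at least 2-fold higher and 3.67% at least 2-fold lower. The median log2 ratio was 1.92 over the members and 0.36 over all these genes. Relative to the median of all genes the members' median was 1.56, and 33 members were at least 2-fold higher. No share of all genes after this centring is given beside that count. The 40 higher members comprised 39 of the first 40, all but Glyma13g12130, and Glyma13g13040 of the last 8. The median log2 ratio of the last 8 was 0.24, and 7 of them were higher as deposited but 3 relative to the median of all genes. As deposited, 26517 of all 34421 genes were higher, so nothing is read from the 7.

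The ratios of the first 40 members other than Glyma13g12130, 39 genes, fell into 2 ranges, seen in the values and not tested. Glyma13g11810, Glyma13g11820, Glyma13g11980, Glyma13g12070, Glyma13g12150 and Glyma13g12180 were 2.12 to 2.46 times as high in the five-foliate shoot tip. The other 33 were 3.37 to 6.26 times as high, and none of the 39 lay between 2.46 and 3.37. Of the 6, Glyma13g11810, Glyma13g12150 and Glyma13g12180 had near-identical read numbers, given below, and a further model of Glyma13g11820 had those of Glyma13g11810. The chosen models of Glyma13g11820 and Glyma13g12070 had 19995 and 19014 reads in the standard tip, close to the 18382 of Glyma13g11810. The 6 ratios are therefore not 6 separate observations, and the other 33 also include genes with near-identical read numbers. For 2 of the 6 genes with smaller ratios the model chosen matters. The long model of Glyma13g11820 had 16.3 RPKM (standard tip) and 72.0 RPKM (five-foliate tip), a ratio of 4.43, while the short model that stands for the gene had 224 and 475 RPKM, a ratio of 2.12. For Glyma13g12070 the long model gave 3.84 and the short one 2.15.

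Genotypes were then compared in the bud, where the five-foliate library chose the run, so that nothing is read from its direction. The 3 highest ratios belonged to Glyma13g11990, Glyma13g11910 and Glyma13g12120. Glyma13g11990 stood at 2135 RPKM in the standard bud against 4542 RPKM in the five-foliate bud, 2.13 times as high (2.12 to 2.14). Glyma13g11910 was 1.99 times as high (1.97 to 2.01) and Glyma13g12120 also 1.99 times (1.97 to 2.00). The lowest ratios were those of Glyma13g13040, at 0.767 of the standard level (0.706 to 0.833), Glyma13g13030 at 0.910 (0.818 to 1.01) and Glyma13g13280 at 0.884 (0.524 to 1.49). The last 2 intervals include equal levels.

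A 2-fold or larger excess in the five-foliate bud was shown by 1 of the 48 members, Glyma13g11990, and 0 were at least 2-fold lower, against 0.604% and 0.142% of all genes passing the filter. The number depends on the scaling, because several ratios lie just under 2. It was 7 with ratios centred on the median of all genes, 7 with upper-quartile scaling and 7 with the libraries set to equal RPKM sums outside the run. The percentages above hold for the values as deposited, and no share of all genes is given for these scalings. The median log2 ratio was 0.75 over the members and -0.06 over all genes. The 39 members of the first 40 other than Glyma13g12130 covered a range of 1.42 to 2.13 times the standard level. Of the last 8, 7 were lower in the five-foliate bud as deposited and 5 relative to the median of all genes. As deposited, 24180 of all 34421 genes passing the filter were lower, so nothing is read from the 7. The 6 members with the smaller shoot tip ratios were 1.78 to 1.85 times as high, inside the range of the other 33.

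**Figure D3:**
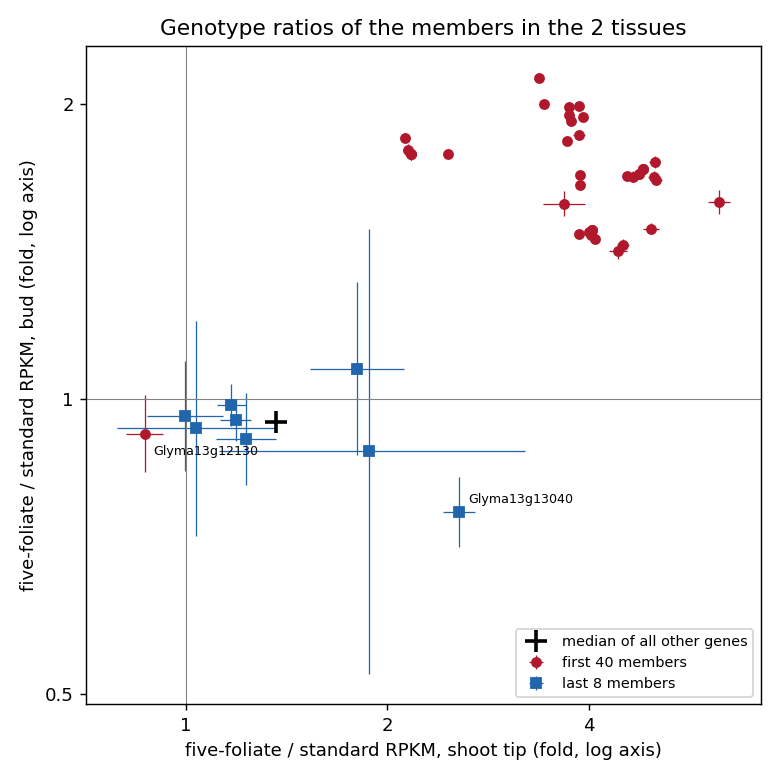
Ratio of the five-foliate to the standard RPKM in the bud (vertical axis) against the same ratio in the shoot tip (horizontal axis), both on log scales, for the 48 members, with 95% exact binomial intervals as bars and the median of all other genes as a cross. The first 40 members apart from Glyma13g12130 lie between 2.12 and 6.26 in the shoot tip and between 1.42 and 2.13 in the bud, and the last 8 lie nearer to the cross.

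Glyma13g13040, among the last 8, differed in direction between the tissues. Its shoot tip level was 13.7 RPKM (standard) and 35.1 RPKM (five-foliate), 2.56 times as high (2.43 to 2.70). Its bud level was 14.5 RPKM (standard) and 11.1 RPKM (five-foliate), where the standard level was 1.30 times as high (1.20 to 1.42). The five-foliate shoot tip alone was high, and the other 3 libraries lay between 11.1 and 14.5 RPKM.

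The tissues were set side by side within each genotype. They stand in separate tables, and the column headers of the shoot tip carry a sequencing label that those of the bud lack, so tissue and anything that went with that label cannot be told apart. These ratios share libraries with the genotype ratios above and are not independent of them. In the standard line the largest ratio was that of Glyma13g12220, the last of the first 40, with 25.0 RPKM in the shoot tip and 309 RPKM in the bud, 12.4 times as high (11.6 to 13.3). Glyma13g11880 was 9.23 times as high in the bud (8.99 to 9.48) and Glyma13g12090 8.42 times (8.19 to 8.65). Glyma13g12130 again lay at the other end, at 0.684 of the shoot tip level (0.634 to 0.737), followed by Glyma13g13040 at 1.05 (0.981 to 1.13) and Glyma13g12610 at 1.18 (0.970 to 1.44).

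In the standard line 39 of the 48 members were at least 2-fold higher in the bud and 0 at least 2-fold lower, against 18.8% and 8.07% of all genes passing the filter. All 39 belong to the first 40. With ratios centred on the median of all genes 33 members were higher, with upper-quartile scaling 34 and at a 3-fold threshold 30. Matching shares of all genes are not given for these 3 counts. The median log2 ratio was 1.96 over the members, 0.44 over all genes and 1.52 for the members relative to all genes. The last 8 members were 1.05 to 2.07 times as high in the bud.

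In the five-foliate line Glyma13g12220 was again the highest, with 91.9 RPKM in the shoot tip and 490 RPKM in the bud, 5.33 times as high (5.12 to 5.54), followed by Glyma13g11880 at 3.34 times (3.30 to 3.39) and Glyma13g12000 at 3.33 times (3.29 to 3.37). Glyma13g12170 had 217 and 207 RPKM, the bud level being 0.957 of that in the shoot tip (0.936 to 0.979). Glyma13g13040 was at 0.316 (0.295 to 0.338), Glyma13g12610 at 0.705 (0.593 to 0.835) and Glyma13g12130 at 0.726 (0.671 to 0.786). At least 2-fold higher in the bud were 15 of the 48 members and at least 2-fold lower was 1, Glyma13g13040, against 7.45% and 7.87% of all genes. The count was 20, 19 of them higher, with upper-quartile scaling and 24, 23 of them higher, with equal RPKM sums outside the run. Shares of all genes under these scalings are not given. The median log2 ratio was 0.89 over the members and 0.03 over all genes. The five-foliate bud, on the upper side of this ratio, is the library that chose the run, so nothing is read from the members' excess over all genes. Whether the tissue ratio differs between the genotypes was not tested, since there is 1 library behind each level.

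**Figure D4:**
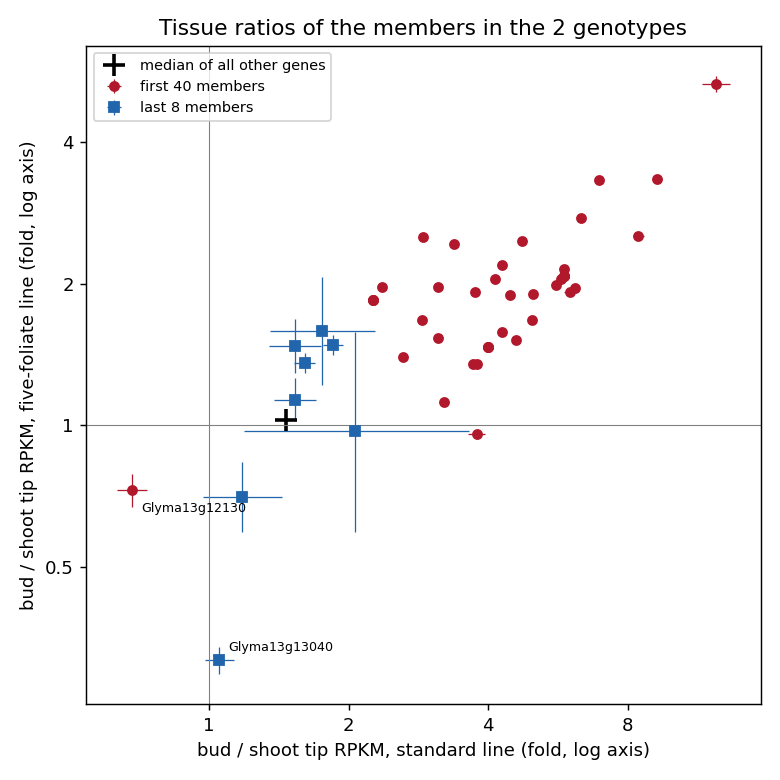
Ratio of bud to shoot tip RPKM in the five-foliate line (vertical axis) against the same ratio in the standard line (horizontal axis), both on log scales, for the 48 members, with 95% exact binomial intervals as bars and the median of all other genes as a cross. The first 40 members apart from Glyma13g12130 lie between 2.26 and 12.4 in the standard line and between 0.957 and 5.33 in the five-foliate line, with Glyma13g12220 highest on both axes.

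Among the first 40 members other than Glyma13g12130, all 39 were lowest in the standard shoot tip. Of these, 38 were highest in the five-foliate bud, which restates in part how the run was chosen. Over all 34421 genes passing the filter, 26517 were higher in the five-foliate than in the standard shoot tip. In the standard bud 25761 were higher than in the standard shoot tip. How many were lowest in the standard shoot tip was not counted, so this is not shown to be particular to the run. Glyma13g12170 was highest in the five-foliate shoot tip. The 2 middle libraries had no fixed order, with the five-foliate shoot tip above the standard bud in 14 members and below it in 25. Levels kept their ranks across libraries. Over the first 40 members the Spearman correlation of levels between 2 libraries lay between 0.953 (standard shoot tip and standard bud) and 0.990 (both buds). This is a correlation across genes, which share reads and are not independent replicates. No such correlation over all genes is set beside it, so it is not shown to be particular to the run.

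Model lengths, recovered from the values, ranged widely among the first 40. Length is not independent of the choice of members, because RPKM divides by it and the model with the highest mean RPKM stands for a gene. All 3 genes over 20000 bases among the genes passing the filter were members: Glyma13g11980 with 58139 bases, Glyma13g12020 with 24078 bases and Glyma13g12030 with 72756 bases. Counting alternative models, 6 models in the files exceeded 20000 bases, and all 6 belong to members, among models whose length could be recovered. The other 3 are the long models of Glyma13g11820 (35321 bases), Glyma13g11940 (45822 bases) and Glyma13g12070 (42143 bases). At the other extreme Glyma13g12160 had 81 bases and Glyma13g12190 had 150 bases. The median over the first 40 was 634 bases, against 1333 bases over all genes passing the filter, from which nothing is read for the reason given.

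Members of very different length could have similar read numbers. Glyma13g12030, with 72756 bases, had 81320 reads (standard tip), 276355 reads (five-foliate tip), 161438 reads (standard bud) and 314796 reads (five-foliate bud), or 7.32, 27.2, 22.8 and 41.8 RPKM. Glyma13g11950, with 583 bases, had 84268, 312325, 214857 and 339906 reads, or 946 to 5627 RPKM. The read numbers of these 2 genes differ by less than 1.5 times in each library, and their RPKM by more than 100 times in each. Whether the reads of the long models lie evenly along them cannot be read from RPKM.

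**Figure D5:**
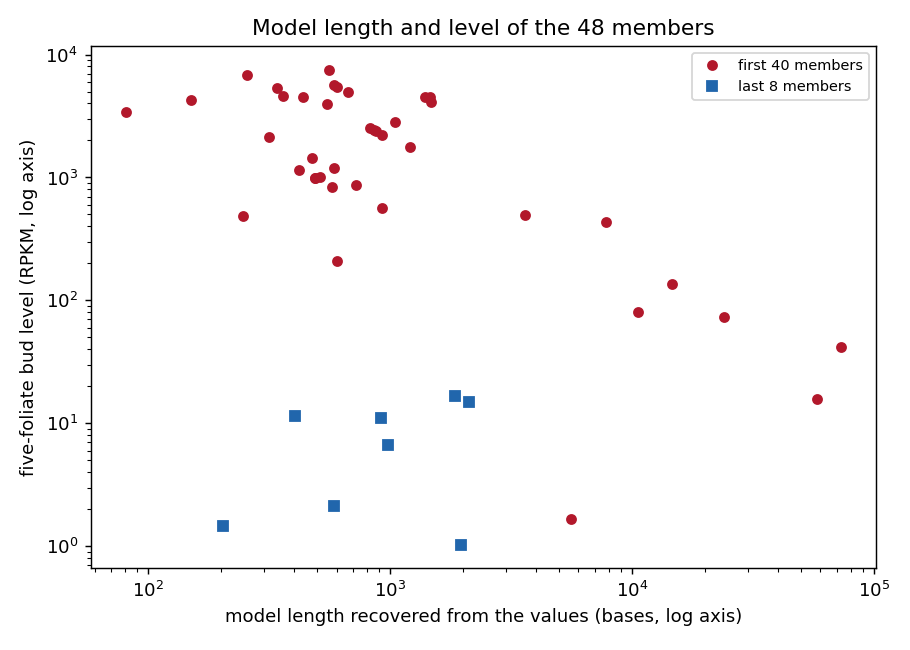
Level in the five-foliate bud (vertical axis, RPKM) against the model length recovered from the values (horizontal axis, bases), both on log scales, for the first 40 and the last 8 members. The 5 members over 10000 bases lie between 15.7 and 136 RPKM, below every shorter member of the first 40 except Glyma13g12130 (5575 bases, 1.67 RPKM).

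Several members had the same read numbers. Glyma13g11860 (666 bases) and Glyma13g11950 (583 bases) both had 84268 and 312325 reads in the standard and the five-foliate tip, and 214857 and 339906 reads in the standard and the five-foliate bud. Their RPKM values differ through length alone. Glyma13g11870 came close to them, with 84196, 312023, 214722 and 339642 reads. Glyma13g12150 and Glyma13g12180, both of 489 bases, had 18383, 36473, 26492 and 50056 reads, and Glyma13g11810 differed from them by at most 1 read in each library. Glyma13g11830, Glyma13g11850 and Glyma13g11970 had 31949, 31943 and 31938 reads in the standard shoot tip and 216867, 216858 and 216851 in the five-foliate bud. In all, 9 members formed 3 groups of 3 whose read numbers lay within 1% of each other in the 4 libraries.

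Among the 46 members with at least 1000 reads over the 4 libraries, 4 had read numbers identical to another gene in all libraries, or 8.70%. Among all 28719 genes passing the filter with as many reads, 15 did, and these 15 include the 4. No gene outside the identifier range with as many reads had read numbers within 1% of a member's. Alternative models repeat the pattern, with 1 set of 4 models from Glyma13g11810, Glyma13g11820 and Glyma13g11940 at 573 bases and 18382, 36473, 26491 and 50057 reads each. Neither the labels nor the file headers state how the authors counted reads that match several models, or whether strand was used. Levels of members that share reads are therefore uncertain one by one, and sums over members may count a read more than once. Counting each group of near-identical read numbers once, by its highest level, the run held 2.04%, 7.67%, 8.65% and 14.0% of the RPKM sum of the standard shoot tip, five-foliate shoot tip, standard bud and five-foliate bud.

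Of the 26 genes of the range that were not members, 11 had no read in any library, where 3 reads are the limit that a count of 0 allows. Just inside, Glyma13g12610 had 0.815, 1.47, 0.963 and 1.03 RPKM and Glyma13g12560 had 1.29, 1.34, 2.26 and 2.12 RPKM in the standard shoot tip, five-foliate shoot tip, standard bud and five-foliate bud. Just outside, Glyma13g12540 had 0.283, 0.900, 0.423 and 0.915 RPKM, and Glyma13g12430 had 0.280, 0.889, 0.439 and 0.943 RPKM. Those 2 genes outside the filter had 21, 61, 20 and 46 reads and 21, 61, 21 and 48 reads, again near-identical numbers. Among the other genes of the range outside the filter, 2 passed in the bud and failed in the shoot tip and are named here for that reason. Glyma13g13020 had 0.0474 and 0.0942 RPKM in the standard and the five-foliate tip, and 2.07 and 1.64 RPKM in the standard and the five-foliate bud. Glyma13g13300 had no read in either tip library, and 0.788 and 1.04 RPKM in the standard and the five-foliate bud. Without the filter, 40 genes of the range were at least 2-fold higher in the bud of the standard line and 17 in that of the five-foliate line. No share over all unfiltered genes is given, so nothing is read from these 2 counts.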

How the data were processed

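RNA-seq was made from 4 libraries of soybean shoot tips and vegetative buds. The authors deposited RPKM values per gene model as a shoot tip table and a bud table. The submitters' processing notes name Bowtie, with no version, and build, annotation and counting rules are not stated there. The bud table also held 708957 empty rows, which were dropped. The 4 library totals, model lengths and whole reads were recovered by a search for totals and for the smallest length from 20 to 200000 bases that turned a model's values whole within 0.0005 reads. Whole numbers resulted for 99.9952% of the 62593 models above 0 in all 4 libraries, against 0% of 3000 models with shifted values. In simulated data all reads were recovered for 96.85% of 2000 models. The simulated lengths did not include those of members over 10000 bases or of Glyma13g12160, the shortest member. Recovery at such lengths was therefore not checked by the simulation. Each gene was represented by its model of highest mean RPKM, and shares refer to the sum over all genes. Ratios used log2(RPKM + 1), a threshold of 2-fold and no test. Columns were assigned to samples by the genotype and tissue in their headers.

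The members and the gene lists were chosen with earlier results of these data known. Named members were the 10 with the largest mean share, the 3 highest and 3 lowest ratios in each of 4 comparisons, the ends, and the genes nearest to the filter; others were named after their values were seen, where they share reads, have long models, adjoin a named gene or set a range. Alternatives were pseudocounts of 0.1 and 5, a filter of 5 RPKM and none, a threshold of 3-fold, 3 scalings and summed models. With 1 library per group, replicates could not be left out or tested for outliers. No sequences were matched. Software was Python 3.11.15 with pandas 2.3.3, numpy 2.4.6, matplotlib 3.10.9 and SciPy 1.17.1.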

Additional observations from a re-analysis of the deposited data

Results flagged for a closer look

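For 2 members the five-foliate to standard ratio had opposite directions in the 2 tissues, with counting intervals clear of equal levels in both. Glyma13g13040 had a log2 ratio of 1.30 in the shoot tip and -0.35 in the bud, and 0.94 and -0.29 relative to the median of all genes. Glyma13g13260 had 0.23 in the shoot tip and -0.068 in the bud, but -0.13 and -0.0036 relative to that median, so its opposite directions depend on the scaling. With 1 library per group neither difference was tested against plants.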

How the results depend on the processing

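The direction of each median ratio and the order of the 4 libraries in share held under all alternatives run. In the order shoot tip genotype, bud genotype, standard tissue and five-foliate tissue, the members' median log2 ratio was 1.56, 0.82, 1.52 and 0.86 with ratios centred on the median of all genes, 1.58, 0.82, 1.57 and 0.92 with upper-quartile scaling, 1.89, 0.74, 1.91 and 0.88 with a pseudocount of 5, 1.95, 0.76, 2.00 and 0.92 with a filter of 5 RPKM, and 1.11, 0.53, 1.20 and 0.52 over all 74 genes of the range, where 11 of the 26 added genes had no read. With equal RPKM sums outside the run the last 3 were 0.81, 2.01 and 1.00. With all models of a gene summed the shoot tip genotype and standard tissue medians were 1.91 and 1.91, and a pseudocount of 0.1 gave 1.95 for the former. The count of 2-fold bud genotype differences was 7 under each of the 3 scalings and 0 at 3-fold (no test or unadjusted p exists). The five-foliate tissue count, 16 as reported, was 3 at 3-fold, 20 with upper-quartile scaling and 24 with equal RPKM sums outside the run. For the counts under these alternatives no share of all genes is given.

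In the order standard shoot tip, five-foliate shoot tip, standard bud and five-foliate bud, the share of the run was 1.96%, 7.66%, 8.62% and 14.0% with all models in the sum. Reads of 1 model per gene made up 1.08%, 4.19%, 4.50% and 7.64% of all alignments. Without its most abundant member the run held 2.37%, 8.82%, 9.87% and 15.6% of the RPKM sum. With identical members counted once it held 2.34%, 8.81%, 9.90% and 15.9%. With near-identical ones counted once, chosen after seeing the data, it held 2.04%, 7.67%, 8.65% and 14.0%. The summed level was 15132, 58469, 63894 and 106002 RPKM with all models of a gene, against 13450, 54006, 58909 and 97080. Of 648 values for single members, 382 stayed inside their counting interval and 266 moved beyond it, with no called ratio changing sign. No paired analysis was possible because each group has 1 library. Depth limits the lowest members: the 25 to 43 reads of Glyma13g13280 leave intervals that include equal levels in the bud.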
